A study of Mus musculus with 8 samples.

Results

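All 8 of the 8 arrays of the study entered this comparison: the 4 arrays of 3T3-L1 pre-adipocytes were set against the 4 arrays of RAW 264.7 macrophages. They were chosen by cell line alone, and no measured value was used. 3T3-L1 is a mouse line of embryonic fibroblast origin that can be driven to become adipocytes in culture. RAW 264.7 is a macrophage-like mouse line derived from a virus-induced tumour. By the labels, each line had 1 array of untreated cells, 1 with 100 µM serotonin, 1 with 100 µM cortisol and 1 with cortisol-serotonin. For the last the labels give 100 µM of each hormone, and all were taken after 48 h. Every array came from a transwell co-culture, in which the other line grew across a porous membrane, so no array held a line grown alone. Values for single arrays are given below in the order untreated, serotonin, cortisol, cortisol-serotonin.

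The cells' RNA was labelled with Cy5 and a common reference with Cy3, and each value is the log2 ratio of Cy5 to Cy3. The reference was RNA pooled from these cells; the labels and the study's methods differ on which cells entered the pool, and it cancels in a difference between lines. A difference is 3T3-L1 minus RAW 264.7 throughout, so a positive value means higher in 3T3-L1. A gene was called when the Benjamini-Hochberg adjusted p of limma's test, with treatment as 4 matched pairs, was under 0.05 and the difference was at least 2-fold. The 4 arrays of a line differ in treatment and share 1 of 2 slides, so the p-values measure only the spread between these arrays, and the slide and the cell line cannot be told apart.

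Fibroblast-lineage cells build connective tissue: they secrete collagens, fibronectin and proteoglycans, cross-link them, and respond to platelet-derived and fibroblast growth factors. Pre-adipocytes belong to this lineage and add the nuclear receptor PPARγ and the C/EBP factors when they differentiate. Macrophages are leukocytes of the myeloid lineage; they depend on the CSF1 receptor and the transcription factor PU.1, take up particles through Fc and complement receptors that signal by the adaptors FcRγ and DAP12, and carry a phagocyte NADPH oxidase.

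The defining markers of both lines followed the labels. Col1a2, a chain of type I collagen, had log2 ratios of 0.15, -0.37, -0.01 and -0.08 on the 3T3-L1 arrays, against -6.64, -6.18, -6.69 and -6.29 on the macrophage arrays, a difference of 6.37 ± 0.16 (SE, n = 4 pairs, adjusted p = 2.41e-10). Col3a1, type III collagen, differed by 5.84 ± 0.33 (adjusted p = 7.46e-08), with -0.29, -0.65, -0.47 and -0.28 in 3T3-L1 against -6.82, -4.82, -6.52 and -6.90 in macrophages. The macrophage array labelled serotonin was the highest of its line for this gene, and the groups did not overlap. Pdgfrb, the β receptor for platelet-derived growth factor, differed by 3.37 ± 0.15 (adjusted p = 1.09e-08). Col1a1, the other chain of type I collagen, had an outlier spot on 2 arrays and was not tested: its remaining values were 0.95, 0.67 and 0.39 in 3T3-L1 (untreated, cortisol, cortisol-serotonin), against -6.24, -2.87 and -5.63 in macrophages (untreated, serotonin, cortisol).

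**Figure D1:**
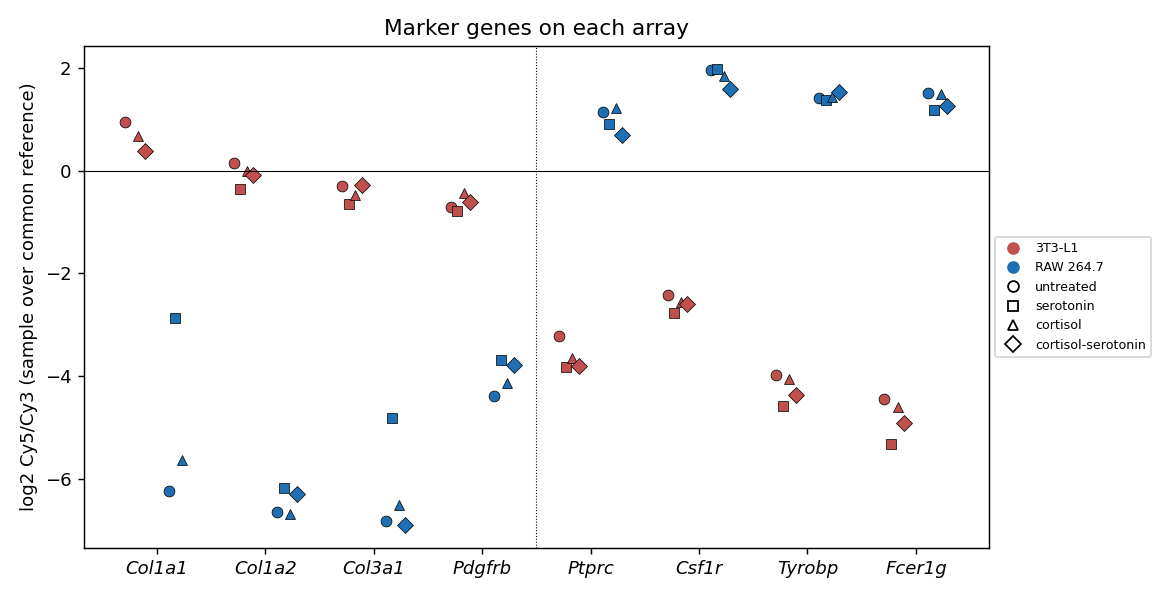
Log2 ratio of sample to common reference (vertical axis) for the 8 marker genes on each of the 8 arrays; red symbols are 3T3-L1, blue symbols RAW 264.7, and the symbol shape gives the treatment. The 4 fibroblast markers lay above the macrophage arrays on each 3T3-L1 array with a value, and the 4 macrophage markers below them; Col1a1 has 3 values per line because of outlier spots.

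The macrophage markers ran the other way. Fcer1g, which encodes the FcRγ chain, had log2 ratios of -4.46, -5.33, -4.59 and -4.92 in 3T3-L1, against 1.51, 1.19, 1.49 and 1.25 in macrophages, a difference of -6.19 ± 0.12 (adjusted p = 1.09e-10). Tyrobp, which encodes DAP12, differed by -5.69 ± 0.13 (adjusted p = 1.72e-10), and Ptprc, the leukocyte phosphatase CD45, by -4.62 ± 0.12 (adjusted p = 2.82e-10). The groups of arrays did not overlap for any of the 3. Csf1r, the receptor of macrophage colony-stimulating factor, was read by 3 probes, which differed by -4.39, -2.74 and -6.17, and their mean by -4.44 ± 0.12 (adjusted p = 3.84e-10). The plot of the marker genes shows these values array by array.

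Markers of other cell types were mostly dim. All 6 keratinocyte and epithelial markers, 5 of 7 lymphocyte markers and 3 of 6 endothelial markers were not above background on all arrays of either line. Vwf, the von Willebrand factor of endothelial cells, was the only one called of the 2 among them that were tested, at 2.76 ± 0.12 (adjusted p = 9.74e-09), with 0.17, 0.42, 0.46 and 0.43 in 3T3-L1 against -2.33, -2.60, -2.18 and -2.43 in macrophages. A further endothelial marker, Cdh5, was well above background only in 3T3-L1, with 0.72, 0.57, 0.51 and 0.40 against -0.04, -0.27, -0.44 and -0.22. The lymphocyte markers that were not dim were Cd4 and Cd3e, and neither was tested. Cd4 was above background in Cy5 on 4 arrays of each line, and Cd3e on 4 of 3T3-L1 and 1 of macrophages.

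Over all genes, 10995 were above background in both channels on all 8 arrays and were tested. Of these, 1746 (15.9%) were higher in 3T3-L1 and 1743 (15.9%) were lower. The difference was at least 4-fold for 651 higher and 551 lower genes and at least 16-fold for 179 and 131. The arrays of the lines did not overlap for 7722 genes (70.2%), and 3478 of the 3489 called genes were among them; all 4 treatment pairs passed 2-fold for 2544. With median centring of each array in place of loess, which moved the median of all genes to -0.14 on the log2 scale from 0.04, the counts were 1415 higher and 2189 lower. A gene's value is the mean of its probes above background on all 8 arrays. When all its probes were averaged, 12 of the 143 called genes named here came out over 1.5 times smaller and none larger, and each of the 12 kept its direction and its call.

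**Figure D2:**
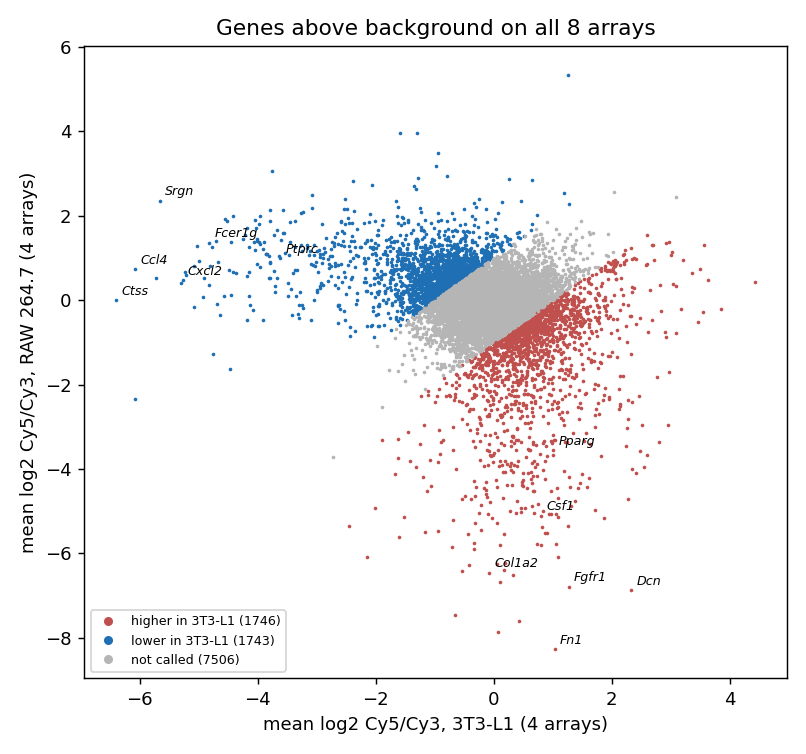
Mean log2 ratio to the reference in 3T3-L1 (horizontal axis, 4 arrays) against RAW 264.7 (vertical axis, 4 arrays) for the 10995 genes tested; red genes were called higher in 3T3-L1 (1746), blue genes lower (1743), grey genes were not called (7506). Matrix genes such as Fn1 and Dcn lie at the bottom right, and macrophage genes such as Srgn and Ctss at the upper left.

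The log2 ratios of arrays of the same line had correlations across genes of 0.902 to 0.984 within 3T3-L1 and 0.953 to 0.987 within macrophages. Between lines they were -0.234 to -0.187, and genes are not independent replicates. Since the reference was pooled from these cells, a gene above it in one line tends to lie below it in the other. The negative sign is thus partly set by the design. The median SD of a gene over the 4 arrays was 0.176 in 3T3-L1 and 0.118 in macrophages, against a median absolute difference between lines of 0.625. Median Cy5 signals were 62 to 79 units on 3T3-L1 arrays and 51 to 103 on macrophage arrays, over local backgrounds of 26.5 to 28. In Cy5, 51.1 to 53.9% and 47.9 to 57.5% of spots were well above background, and no spot was saturated. The upper ends of both macrophage ranges, 103 units and 57.5%, were those of the array labelled serotonin.

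The reference RNA is the same on both slides, so its own difference bears on the slide. Its levels were taken after loess and Aquantile scaling, which use both channels, so they are not free of the samples' signal. In the Cy3 channel 335 of the 10995 genes (3.05%) differed at least 2-fold between the slides: 2.29% of the genes called higher, 2.47% of those called lower and 3.36% of those not called. For the markers the Cy3 difference was small beside the Cy5 difference: Fcer1g differed by -0.24 in Cy3 and -6.42 in Cy5, Tyrobp by -0.05 and -5.74, and Pdgfrb by -0.21 and 3.16. Larger Cy3 differences stood beside Fn1, with -1.09 in Cy3 and 8.22 in Cy5, and Dcn, with -1.43 and 7.78. Col3a1 had 0.82 in Cy3 and 6.67 in Cy5.

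**Figure D3:**
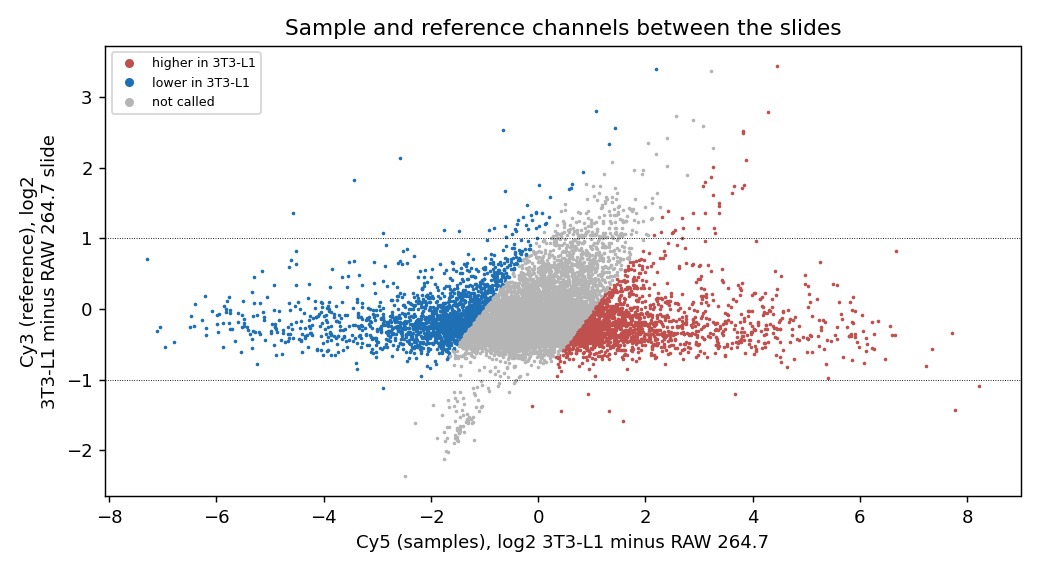
Difference between the slides in the sample channel (Cy5, horizontal axis, log2 3T3-L1 minus RAW 264.7) and in the reference channel (Cy3, vertical axis, same direction) for the 10995 genes tested, coloured by call; dotted lines mark 2-fold in Cy3. Most genes lie within 2-fold in Cy3 over the whole width of the Cy5 differences, and 335 lie outside.

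The extracellular matrix held the largest differences in the direction of 3T3-L1. Of 17 listed collagen genes 11 were tested. Of these, 10 were higher and none was lower, and their median difference was 5.84, against 0.04 over all genes tested. The shares over all genes tested, 15.9% higher and 15.9% lower, stand beside this and every list count below. The fibrillar Col5a1 was 144.3-fold higher (log2 7.17 ± 0.16), Col5a3 and Col16a1 differed by 6.35 and 6.41, and the basement membrane chains Col4a1 and Col4a2 by 6.22 and 4.68. Col6a1, Col6a2 and Col7a1 followed at 3.64, 2.65 and 3.06. Col18a1 was not called, at -0.49. Col6a3 was well above background on all 4 arrays of 3T3-L1 and on 1 of 4 arrays of macrophages and so was not tested, with log2 ratios of 0.78, 1.35, 0.46 and 1.52 against -6.48, -6.41, -6.10 and -6.58.

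All 9 tested matrix glycoproteins and proteoglycans of 26 listed were higher, with a median of 4.70. Fn1, fibronectin, had the largest difference of all genes called: 1.24, 1.15, 0.72 and 1.02 in 3T3-L1 against -8.65, -7.70, -8.43 and -8.31 in macrophages, a difference of 9.31 ± 0.16 or 633.2-fold (adjusted p = 1.07e-10). Dcn, the small proteoglycan decorin, came next at 591.0-fold (9.21 ± 0.17, adjusted p = 1.07e-10), with 2.47, 2.01, 2.54 and 2.31 against -7.09, -6.60, -7.13 and -6.68. Every 3T3-L1 array lay far above every macrophage array for both genes. The basement membrane proteoglycan Hspg2 differed by 6.61, the hyaluronan-binding Vcan by 5.11 and the laminin chain Lamb1 by 4.70. Thbs1, thrombospondin-1, Nid1, a linker of basement membranes, and Fbn1, fibrillin-1, were well above background only in 3T3-L1, at least 205.3-fold, 23.0-fold and 15.3-fold higher; the bounds are explained below.

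Enzymes that fold, cross-link and cut this matrix moved the same way: 14 of 15 tested genes (21 listed) were higher and none was lower, with a median of 4.30. The collagen chaperone Serpinh1 was 115.3-fold higher (6.85 ± 0.16), and the cross-linking lysyl oxidases Lox, Loxl1 and Loxl2 differed by 6.02, 4.42 and 2.54. The prolyl hydroxylase subunit P4ha2 and the procollagen C-proteinase Bmp1 differed by 4.24 and 4.30, and the gelatinase Mmp2 by 4.33. Timp1, an inhibitor of metalloproteinases, was higher by 5.46 ± 0.34 (adjusted p = 1.7e-07) but varied over the 3T3-L1 arrays: it had 2.20, 0.43, 2.10 and 0.40 in 3T3-L1, against -4.25, -4.23, -4.42 and -3.82 in macrophages. The 3T3-L1 arrays labelled serotonin and cortisol-serotonin were the low pair. Plod2, a lysyl hydroxylase, was under 2-fold at 0.90.

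Receptors and surface proteins of mesenchymal cells gave 6 higher, 1 lower and 2 uncalled genes among 9 tested of 24 listed. Fgfr1, a receptor of fibroblast growth factors, was 267.1-fold higher (8.06 ± 0.32, adjusted p = 5.79e-09), with 1.37, 1.15, 1.26 and 1.29 in 3T3-L1 against -7.48, -5.32, -6.78 and -7.58 in macrophages. The serotonin array again stood highest among the macrophages. These values came from the 1 probe above background on every array, and with the dim probes of Fgfr1 averaged in the gene was 32.0-fold higher. The collagen receptor Ddr2, the receptor kinase Axl and the caveolar protein Cavin3 differed by 5.46, 5.02 and 4.48. Eng, the TGF-β co-receptor endoglin, was the one lower gene, at -2.01 ± 0.15 (adjusted p = 6.1e-07). Pdgfra, the α receptor for platelet-derived growth factor, was well above background only in 3T3-L1, at least 9.4-fold higher. The adhesion molecule Cdh2, N-cadherin, was above background on 4 arrays of 3T3-L1 and 1 of macrophages, with means over its 2 probes of 2.26, 1.91, 1.91 and 1.93 against -6.30, -5.25, -5.81 and -5.90.

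Of 22 listed contractile and actin-binding genes 15 were tested; 10 were higher and none was lower, and the median was 1.66. Cnn3, a calponin, stood apart from the rest at 6.31, followed by Cnn2 at 3.55; the smooth muscle actin Acta2 and transgelin Tagln differed by 2.15 and 1.58. Cald1, caldesmon, and Fhl2, a LIM-domain cofactor, were above background only in 3T3-L1, at least 47.5-fold and 31.1-fold higher.

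Growth factors of the TGF-β, BMP and CCN families and their binding proteins gave 11 higher and no lower genes among 13 tested of 25 listed, with a median of 2.30. Fstl1, a secreted follistatin-like glycoprotein, was 261.7-fold higher (8.03 ± 0.22, adjusted p = 4.49e-10), with 0.70, 0.31, 0.38 and 0.30 in 3T3-L1 against -8.19, -7.23, -7.98 and -7.02 in macrophages. The matricellular protein Ccn1, the activin subunit Inhba and the latent TGF-β binding protein Ltbp3 differed by 6.51, 6.06 and 5.82. Ccn2 and the co-receptor Tgfbr3 were above background only in 3T3-L1, at least 117.3-fold and 76.8-fold higher. Tgfb1 itself was not called, at -0.94 ± 0.14 (adjusted p = 0.000124), but passed 2-fold with median centring (-1.10), from Cy5 alone (-1.40), with Feature Extraction's processed signals (-1.07) and without the cortisol pair (-1.06).

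Of the IGF system 4 of 6 tested members (16 listed) were higher: the serine protease Htra1 by 3.29, the binding protein Igfbp6 by 2.51, and the mRNA-binding proteins Igf2bp3 and Igf2bp1 by 1.47 and 1.07. Igf2bp1 came under 2-fold with median centring (0.86), from Cy5 alone (0.79) and without the serotonin or the cortisol pair (0.99 each). The receptor Igf1r was above background only in 3T3-L1, at least 30.2-fold higher.

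Transcription factors of mesenchymal cells gave 7 higher and no lower genes among 9 tested of 25 listed. Tead1, a DNA-binding partner of the YAP coactivator, differed by 6.37 ± 0.18 (adjusted p = 5.71e-10) from 1 probe and by 2.67 with its dim probes averaged in, and its paralogue Tead2 by 3.55. The zinc finger factors Snai1 and Snai2 differed by 3.99 and 3.999, and the homeobox factors Meis1 and Meis2 by 2.58 and 2.02. Prrx1 and Foxc2 were above background only in 3T3-L1, at least 11.2-fold and 17.2-fold higher. Hox genes, which pattern the body axis, went both ways: Hoxa3 was higher by 2.38 ± 0.18 (adjusted p = 8.87e-07), while Hoxb6 and Hoxc6 were lower by -2.45 ± 0.11 and -3.36 ± 0.12 (adjusted p = 1.09e-08 and 2.6e-09). Hoxc6 had -1.64, -2.18, -2.04 and -2.22 in 3T3-L1, against 1.47, 1.01, 1.60 and 1.28 in macrophages. Among 26 listed Hox genes 5 were tested, and Hoxd8 and Hoxb2 were above background only in 3T3-L1, at least 7.9-fold and 4.7-fold higher.

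Among regulators of adipogenesis 5 of 11 tested genes (23 listed) were higher and none was lower, with a median of 0.79. All genes tested gave 15.9% higher and 15.9% lower. Outside the test, 2 listed genes were well above background only in 3T3-L1 and 1 only in macrophages. That 1 was Cebpa, a C/EBP factor, with log2 ratios of 0.08, 0.25, 0.22 and 0.30 against 0.96, 1.13, 0.55 and 0.75. Pparg, the PPARγ receptor, had 0.68, 1.15, 0.92 and 1.29 in 3T3-L1 against -3.62, -3.60, -3.57 and -3.43 in macrophages, a difference of 4.56 ± 0.12 (adjusted p = 2.69e-10). Dlk1, the pre-adipocyte factor that marks the undifferentiated state, differed by 4.71 ± 0.16 (adjusted p = 1.75e-09), with 2.16, 2.09, 2.12 and 2.12 against -3.02, -1.99, -2.74 and -2.59. The groups did not overlap for either gene. Klf4 and Cebpd, which act early in adipogenesis, differed by 3.95 and 3.41, and Rxra, the partner of PPARγ, by 1.29, which came under 2-fold with its dim probes averaged in (0.85) and from Cy5 alone (0.81). Of 12 genes of mature adipocytes, 6 were not above background on all arrays of either line: adiponectin (Adipoq), perilipin 1 (Plin1), adipsin (Cfd), leptin (Lep), Cidec and resistin (Retn).

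The other mature adipocyte genes did not follow 1 direction. Plin4, a lipid droplet protein, was 60.3-fold higher (5.91 ± 0.14, adjusted p = 1.82e-10). Fabp4, a fatty acid carrier of adipocytes and macrophages, was lower by -1.34 ± 0.29 (adjusted p = 0.00184), with 0.02, 2.26, 0.01 and 2.47 in 3T3-L1 against 2.60, 2.94, 1.72 and 2.86 in macrophages. Its groups overlapped, since the 3T3-L1 arrays labelled serotonin and cortisol-serotonin lay within the range of the macrophages and the other 2 lay below it; without the untreated pair the difference was -0.93 and not called. Lpl, lipoprotein lipase, was lower by -1.48 ± 0.14 (adjusted p = 4.41e-06) and its groups did not overlap. Cd36, a scavenger receptor and fatty acid translocase, was above background only in macrophages, at least 34.7-fold lower in 3T3-L1.

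On the macrophage side, the Fc receptor and DAP12 pathway ran opposite to the collagens: 16 of 17 tested genes (30 listed) were lower in 3T3-L1 and none was higher, with a median of -5.42. Lcp1, the leukocyte actin bundler L-plastin, was 89.1-fold lower (-6.48 ± 0.16, adjusted p = 2.27e-10), and the adaptor Hcls1 and the GTPase Rac2 differed by -6.11 and -5.77. The exchange factor Vav1, the phosphatase Ptpn6, the actin regulator Was and the phospholipase Plcg2 differed by -5.43, -5.57, -5.66 and -4.88. The inhibitory Fc receptor Fcgr2b and the kinase Btk were above background only in macrophages, at least 19.2-fold and 13.7-fold lower in 3T3-L1. Arhgdib was the one uncalled gene, at -0.60.

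Leukocyte surface and phagocytic receptors gave 14 lower and no higher genes among 17 tested of 40 listed, with a median of -3.57. Cx3cr1, the fractalkine receptor, was 66.0-fold lower (-6.04 ± 0.17, adjusted p = 4.71e-10), with -4.12, -5.35, -4.66 and -4.99 in 3T3-L1 against 1.22, 1.02, 1.76 and 1.05 in macrophages. The lectin Clec4d, the endotoxin co-receptor Cd14, the tetraspanin Cd53 and the lipid receptor Trem2 differed by -5.15, -4.41, -4.15 and -3.88. Adgre1, which encodes the macrophage antigen F4/80, was above background only in macrophages, at least 5.9-fold lower in 3T3-L1. Of these listed genes, 5 were above background only in macrophages and 1 only in 3T3-L1. The latter was the mannose receptor Mrc1, with log2 ratios of 1.18, 0.97, 0.90 and 1.13 against -0.06, -0.36, -0.93 and -0.11. Of 18 listed integrins 10 were tested, of which 3 were lower, 4 were higher and 3 were not called. The shares over all genes tested were 15.9% lower and 15.9% higher. Itgam and Itgb2, the chains of complement receptor 3, differed by -4.17 and -3.97 and Itgb7 by -3.15. Higher were Itgb3, Itgb1, Itga6 and Itga5, by 3.96, 2.21, 1.86 and 1.38.

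Of 25 listed myeloid transcription factors 12 were tested, and 8 were lower, 1 was higher and 3 were not called. Lyl1, a basic helix-loop-helix factor of blood progenitors, was 79.8-fold lower (-6.32 ± 0.14), and Cebpe, Gfi1, Irf5 and Irf8 differed by -5.39, -4.42, -4.31 and -3.04. Spi1, which encodes PU.1, was above background only in macrophages, at least 6.8-fold lower in 3T3-L1, as were Fli1 and Tal1, at least 21.6-fold and 11.5-fold. Klf4, which also stands among the adipogenic regulators, was the higher gene. All 3 tested subunits of the phagocyte NADPH oxidase were lower, Cyba by -4.96, Ncf4 by -3.64 and Rac2 by -5.77, and Ncf1 was above background only in macrophages, at least 21.9-fold lower.

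**Figure D4:**
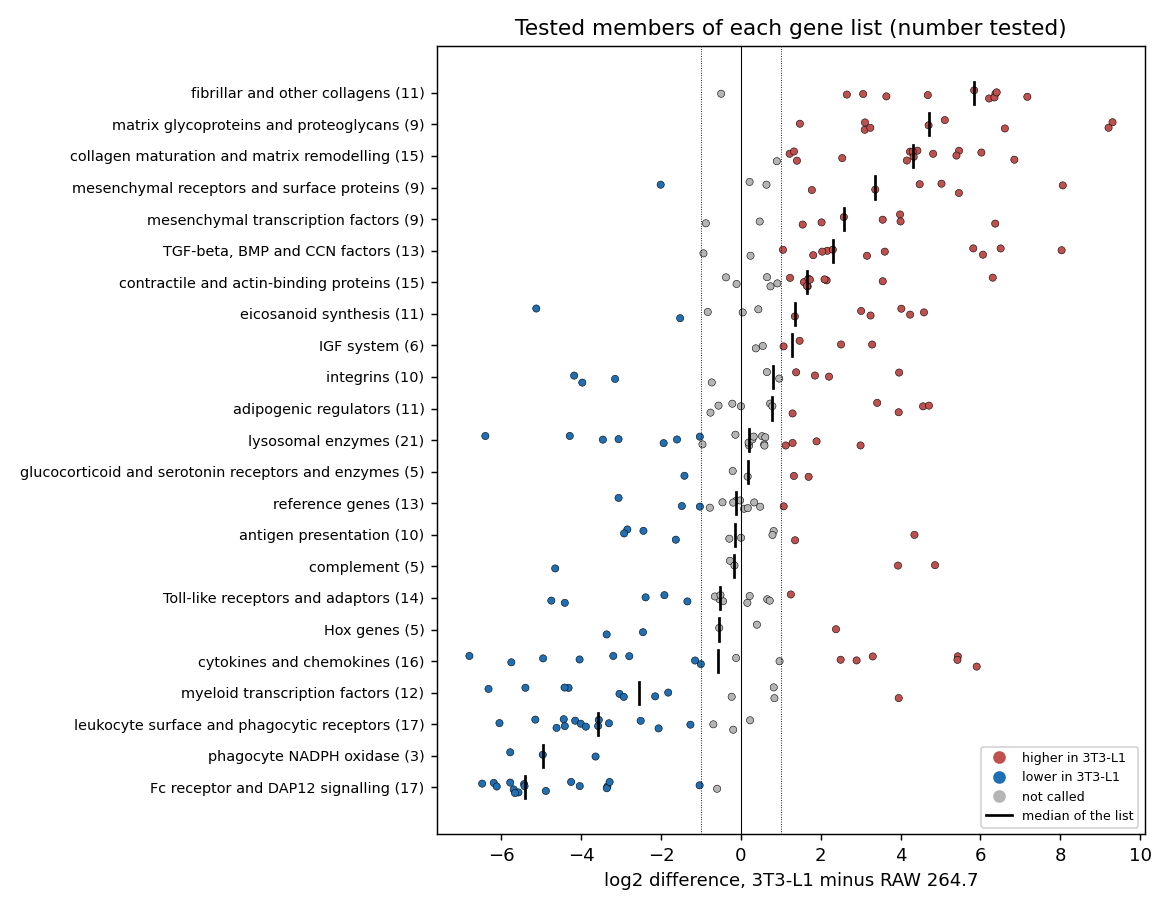
Log2 difference, 3T3-L1 minus RAW 264.7 (horizontal axis), of each tested member of 23 gene lists (rows, with the number tested); each point is 1 gene, red where called higher, blue where called lower and grey where not called, and the black bar is the list's median. Medians run between 5.84 for collagens and -5.42 for the Fc receptor and DAP12 pathway, and dotted lines mark 2-fold.

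Sensing of microbes and lysosomes divided less sharply than the receptors above. Among Toll-like receptors and their adaptors 5 of 14 tested genes (23 listed) were lower, 1 was higher and 8 were not called. Over all genes tested 15.9% were lower and 15.9% higher. Tlr13, Tlr4 and Tlr6 differed by -4.75, -2.39 and -1.91, and Tlr7 was above background only in macrophages, at least 10.53-fold lower in 3T3-L1. The one higher gene was the ligase Traf6, at 1.25, or 0.97 and not called from Cy5 alone. Of 21 tested lysosomal genes 7 were lower and 4 higher, and the 4 higher lay near the share of 15.9% over all genes. Ctss, the cathepsin of antigen-presenting cells, was 84.3-fold lower (-6.40 ± 0.17, adjusted p = 3.47e-10), with -5.53, -7.28, -6.14 and -6.65 in 3T3-L1 against 0.23, -0.30, 0.21 and -0.15 in macrophages. The acid phosphatase Acp5 and lysozyme Lyz2 differed by -4.28 and -3.45, while the collagen-cutting cathepsin Ctsk was higher by 3.00.

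Antigen presentation and complement also held genes of both directions. Cd74, the invariant chain of class II molecules, and H2-Ab1, a class II chain, were lower by -2.84 and -2.44, while H2-DMb1, a class II loading factor, was higher by 4.35 ± 0.14 (adjusted p = 1.04e-09). H2-DMb1 had 0.86, 1.09, 1.37 and 0.85 in 3T3-L1 against -3.51, -3.01, -3.46 and -3.25 in macrophages, opposite to Cd74 and H2-Ab1. The central complement component C3 and factor B (Cfb) were higher by 4.86 and 3.93, and properdin (Cfp) was lower by -4.65.

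Cytokines and chemokines separated gene by gene: of 16 tested of 34 listed, 6 were higher, 8 were lower and 2 were not called. Higher in 3T3-L1 were Csf1, the ligand of the CSF1 receptor (5.91 ± 0.13), the monocyte chemoattractants Ccl7 and Ccl2 (5.43 and 2.50), fractalkine Cx3cl1 (5.42), Il11 (3.30) and Ccl5 (2.90). Among the lower genes were the macrophage inflammatory proteins Ccl4, Ccl3 and Ccl9 (-6.80, -3.19 and -4.04), Cxcl2 (-5.75), Tnf (-4.95) and Il18 (-2.79). Ccl3 was no longer called from the Cy5 channel alone, without the reference (-0.81, adjusted p = 0.431). Tnf had -3.62, -4.21, -3.66 and -3.98 in 3T3-L1 against 1.14, 0.70, 1.28 and 1.21 in macrophages. Il6 and Cxcl12 were above background only in 3T3-L1, at least 47.0-fold and 33.4-fold higher, and Il10 only in macrophages, at least 3.9-fold lower in 3T3-L1.

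Several ligands and their receptors were high in opposite lines; these pairs were picked after their values were seen. Csf1 had 0.71, 0.79, 1.00 and 0.70 in 3T3-L1 against -5.38, -4.77, -5.23 and -5.04 in macrophages, whereas its receptor Csf1r had -2.42, -2.78, -2.56 and -2.60 against 1.96, 1.99, 1.85 and 1.58. The same opposition held for Cx3cl1 (5.42) and Cx3cr1 (-6.04), and for C3 (4.86) and the chains Itgam and Itgb2 of its receptor (-4.17 and -3.97). These are RNA levels, and no protein was measured.

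Cxcl1 and Cxcl2 show how close such genes can lie. They are neighbouring paralogous neutrophil chemokines on chromosome 5, yet Cxcl1 was above background only in 3T3-L1, at least 173.4-fold higher, with log2 Cy5 levels of 13.90, 14.54, 14.28 and 14.53 against 6.55, 7.27, 7.05 and 6.62 in macrophages. Cxcl2 was 53.7-fold lower in 3T3-L1 (-5.75 ± 0.24, adjusted p = 7.19e-09), with log2 ratios of -4.50, -6.21, -4.99 and -5.39 against 0.37, 0.54, 0.49 and 0.49. The promoters of both are shown because they hold the same match to the NF-kB consensus although the genes were high in opposite lines; the windows span the start of the gene in RefSeq (GRCm38.p6), at chr5:90890995-90891294 and chr5:90903649-90903948 on the + strand, with the letters matched on either strand in capitals.
Cxcl1: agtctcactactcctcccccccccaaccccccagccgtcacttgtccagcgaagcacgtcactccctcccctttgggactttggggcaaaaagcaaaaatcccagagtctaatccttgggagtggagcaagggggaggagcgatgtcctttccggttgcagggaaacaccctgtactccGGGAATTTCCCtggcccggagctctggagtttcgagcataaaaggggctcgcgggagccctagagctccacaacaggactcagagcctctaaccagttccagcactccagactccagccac
Cxcl2: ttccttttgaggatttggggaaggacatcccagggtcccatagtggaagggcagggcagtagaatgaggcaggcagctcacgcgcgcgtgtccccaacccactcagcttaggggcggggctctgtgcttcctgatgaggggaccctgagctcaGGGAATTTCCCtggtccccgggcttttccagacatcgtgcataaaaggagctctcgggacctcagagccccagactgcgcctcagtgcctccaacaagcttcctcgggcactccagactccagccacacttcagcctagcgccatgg
Among all 32851 RefSeq promoter windows of this kind, 4.51% held this consensus on either strand, as did 5.23% of those of the genes tested, 6.21% of those of the genes called higher and 6.24% of those of the genes called lower. A match is a description of letters, not of a bound site.

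The promoters of 2 further genes, picked after their values were seen, are shown with a motif of a factor that itself differed between the lines (Spi1 for PU.1, Tead1 and Tead2 for TEAD). The window of Ctss (chr3:95526536-95526835, + strand) holds GAGGAAGT, a motif of PU.1, read on the opposite strand, and that of Ccn1 (chr3:145649936-145650235, - strand, printed in the direction of the gene) holds GGAATG, a motif of TEAD factors, also on the opposite strand; the matches are in capitals.
Ctss: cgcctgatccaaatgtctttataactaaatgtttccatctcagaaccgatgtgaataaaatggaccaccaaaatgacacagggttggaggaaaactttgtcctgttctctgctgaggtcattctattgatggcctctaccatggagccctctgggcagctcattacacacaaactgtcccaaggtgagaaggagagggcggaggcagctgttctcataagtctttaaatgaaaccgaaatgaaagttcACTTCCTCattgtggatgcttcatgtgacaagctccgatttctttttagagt
Ccn1: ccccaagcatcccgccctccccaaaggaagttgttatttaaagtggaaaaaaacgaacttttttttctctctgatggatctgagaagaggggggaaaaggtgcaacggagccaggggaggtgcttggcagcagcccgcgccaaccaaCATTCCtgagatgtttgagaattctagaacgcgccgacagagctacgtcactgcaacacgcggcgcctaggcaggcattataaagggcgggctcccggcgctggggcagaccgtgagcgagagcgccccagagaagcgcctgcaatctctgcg
GAGGAAGT on either strand stood in 2.87% of the windows of genes called higher, 4.51% of those of genes called lower, 3.16% of those of all genes tested and 3.2% of all windows. GGAATG stood in 13.6%, 11.9%, 11.8% and 14.7%. Ctss and Ccn1 are among the genes that passed 16-fold. In that group GAGGAAGT stood in 6% of 150 windows on the 3T3-L1 side and 6.82% of 132 on the macrophage side. The shares of GAGGAAGT were thus close on both sides there. Those of GGAATG were 22% and 17.4%. Whether PU.1 or TEAD factors act at these windows was not tested. The serum response element (CArG box) stood in 2% of windows of genes called higher, 0.865% of those of genes called lower, 1.24% of those of all genes tested and 1.63% of all windows, and TGANTCA, a motif of AP-1, in 6.68%, 4.76%, 4.73% and 7.81%. The windows of the markers Fcer1g and Col3a1 were read as well and are not printed: that of Fcer1g held none of the 5 motifs, and that of Col3a1 held GGAATG and none of the others.

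Eicosanoid synthesis held genes of both directions: of 11 tested genes 6 were higher, 2 were lower and 3 were not called. The 2 lower lay near the share of 15.9% lower over all genes tested, where 15.9% were higher. The cyclooxygenases Ptgs1 and Ptgs2 differed by 4.59 ± 0.20 and 3.01 ± 0.12 (adjusted p = 1.13e-08 and 4.29e-09), and the prostacyclin and prostaglandin E synthases Ptgis and Ptges by 4.24 and 3.25. Ptgs2 had 1.31, 1.40, 1.87 and 1.44 in 3T3-L1 against -1.84, -1.30, -1.29 and -1.60 in macrophages. Alox5ap, the partner of 5-lipoxygenase, was lower by -5.12 ± 0.13 (adjusted p = 2.95e-10), and Alox5 itself was above background only in macrophages, at least 7.3-fold lower in 3T3-L1. Hpgds, a prostaglandin D synthase, was likewise above background only in macrophages, at least 2.3-fold lower in 3T3-L1. The leukotriene C4 synthase Ltc4s and the leukotriene A4 hydrolase Lta4h were not called, at -0.83 and 0.05 (adjusted p = 6.29e-05 and 0.706); Ltc4s passed 2-fold from Cy5 alone (-1.34) and with Feature Extraction's processed signals (-1.35). Pla2g4a, the phospholipase that releases arachidonic acid, was lower by -1.52.

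Among the receptors of the 2 hormones, most serotonin receptors were dim. Nr3c1, the glucocorticoid receptor, had -0.69, -0.48, -0.94 and -0.29 in 3T3-L1 against -0.47, -0.31, -0.35 and -0.47 in macrophages and was not called (-0.20 ± 0.13, adjusted p = 0.186, with overlapping groups). Of the 26 listed receptors, enzymes and response genes of both hormones, 15 were not above background on all arrays of either line, among them the serotonin receptors Htr1a, Htr1b, Htr2b, Htr2c and Htr7. The serotonin receptor Htr2a was above background on all 4 arrays of 3T3-L1 and on 2 of macrophages and so was not tested, with log2 ratios of 1.28, 1.78, 1.93 and 1.79 against 0.17, 0.31, 0.21 and 0.06. Its 3T3-L1 arrays lay above all macrophage arrays. Fkbp5, a gene that glucocorticoids induce in many cells, was lower by -1.41 ± 0.20 (adjusted p = 0.000105), with -0.85, 0.47, -0.71 and 0.60 in 3T3-L1 against 1.25, 1.58, 1.07 and 1.26 in macrophages. Its 3T3-L1 array labelled cortisol lay near the untreated one and that labelled serotonin near cortisol-serotonin. Timp1 and Fabp4 above paired the 3T3-L1 arrays in the same way, while F3, given below, set the cortisol array alone apart. Treatments are given as labelled, and whether the cortisol and serotonin labels of 3T3-L1 are right was not tested.

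Of 13 tested reference genes, 9 were not called, close to the share over all genes, where 7506 of 10995 were not called. Gapdh, a glycolytic enzyme, was higher by 1.07 ± 0.18 (adjusted p = 0.000268), but under 2-fold with median centring (0.95), from Cy5 alone (0.86) and without the cortisol-serotonin pair (0.82). Gusb, β-glucuronidase, was lower by -3.06 ± 0.13 (adjusted p = 8.19e-09), and Sdha, a subunit of succinate dehydrogenase, by -1.03, which was -0.99 without the serotonin or the cortisol pair and from Cy5 alone. Actb was under 2-fold at -0.78.

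Outside the lists, the largest called differences included further secreted and signalling genes. Higher in 3T3-L1 were Epb41l3, a membrane skeleton protein (7.92 ± 0.19), the receptor Gprc5b (7.03 ± 0.14), neuritin Nrn1 (6.97 ± 0.10), the keratinocyte growth factor Fgf7 (6.80 ± 0.20) and the mitochondrial reductase Decr1 (6.78 ± 0.11), with adjusted p between 1.07e-10 and 6.08e-10. Decr1, an enzyme of fatty acid oxidation, had 0.10, 0.04, 0.18 and 0.11 in 3T3-L1 against -6.83, -6.52, -6.74 and -6.59 in macrophages, again from 1 probe; with its dim probes averaged in, Decr1 differed by 3.64. Lower were Srgn, the granule proteoglycan serglycin (-8.01 ± 0.27), the phosphatase Ptpn18 (-6.42 ± 0.16), the cytokine subunit Ebi3 (-6.38 ± 0.13), Mgarp (-6.24 ± 0.21) and the adaptor Dok2 (-5.94 ± 0.11), with adjusted p between 1.07e-10 and 1.41e-09. Srgn was 257.6-fold lower, with -5.08, -6.46, -5.48 and -5.62 in 3T3-L1 against 2.20, 2.85, 2.08 and 2.28 in macrophages.

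A further 922 genes were well above background in Cy5 on all 4 arrays of 3T3-L1 and on no array of macrophages, and 444 on all arrays of macrophages and none of 3T3-L1. Since they were selected for being high in 1 line, they were given only a lower bound of the fold and no test: the mean level in the bright line over the lowest level that counted as above background, or the dim probe's own level where that was higher. The bound reached 2-fold for 471 and 266 genes, 4-fold for 237 and 127, and 16-fold for 54 and 23. A bound holds for the floor chosen: with the 5th percentile of the levels above background as the floor, it reached 2-fold for 379 and 218 genes. Where a gene lay above background on some arrays of the dim line, as 1514 and 485 genes did, it was neither tested nor bounded.

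The largest bounds in 3T3-L1 were those of Thbd, the anticoagulant receptor thrombomodulin, at least 256.9-fold higher, Mmp3, stromelysin-1, at least 155.0-fold, and Ereg, the growth factor epiregulin, at least 140.1-fold, beside Thbs1, Cxcl1 and Ccn2 above. Thbd had log2 Cy5 levels of 15.24, 14.84, 14.25 and 14.74 in 3T3-L1 against 6.42, 7.02, 6.93 and 6.31 in macrophages, where it was not well above background. Rnd3, Prss23, Lce1f, Apln and Serpinb2 followed at 93.5-fold, 71.2-fold, 68.9-fold, 68.4-fold and 65.7-fold. In macrophages the largest were St8sia4, a polysialyltransferase, at least 84.1-fold lower in 3T3-L1, the NF-kB regulator Nfkbid, at least 69.9-fold, the integrin chain Itga4, at least 45.1-fold, and Ly86, which encodes a partner of the receptor RP105, at least 42.2-fold. The bound of Itga4 came from 1 of its 2 probes, since the other was not above background on all 4 macrophage arrays. St8sia4 had 7.43, 5.86, 6.80 and 6.31 in 3T3-L1 against 13.38, 13.15, 13.29 and 12.72 in macrophages. Slc35g1 followed at 41.7-fold, the chemokine receptor Cxcr3 at 39.5-fold, Cd36 as given above, the Y-linked Eif2s3y at 29.8-fold, and Mycn, Gpr132, Hebp2 and Samsn1 between 24.1-fold and 22.6-fold.

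Levels of each line's genes in the other line are given for tested genes only. Those had to be above background on all 8 arrays, so this filter, and no measurement, placed them above background in both lines; the 922 and 444 genes above background in 1 line only stand outside it. The 131 genes at least 16-fold lower in 3T3-L1 had median log2 ratios of -3.44, -3.97, -3.53 and -3.89 on the 3T3-L1 arrays, against 1.37, 1.26, 1.39 and 1.30 on the macrophage arrays. Among the 3T3-L1 arrays, 89 of them were highest on the untreated array and 104 were lowest on the serotonin array. The 179 genes at least 16-fold higher had medians of 0.73, 0.77, 0.75 and 0.84 in 3T3-L1, against -4.44, -3.96, -4.31 and -4.27 in macrophages. Of these, 113 were highest among the macrophages on the serotonin array and 103 were lowest on the untreated array. That serotonin array also had the highest median Cy5 signal of its line, 103 against 58, 51 and 61 (untreated, cortisol, cortisol-serotonin). In 3T3-L1 the median Cy5 signals were 67, 79, 62 and 78. Such orders were not counted over all genes tested, and whether signal strength shaped them was not tested. The macrophage lists and the matrix and mesenchymal lists were chosen with earlier results of these data known. The 46 tested macrophage genes had medians between -2.82 and -2.54 on the 3T3-L1 arrays and between 0.99 and 1.22 on the macrophage arrays. The 44 tested matrix and mesenchymal genes had medians between 0.62 and 0.90 on the 3T3-L1 arrays, against -4.001 to -3.47 on the macrophage arrays. Whether RNA of one line entered the samples of the other was not tested.

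**Figure D5:**
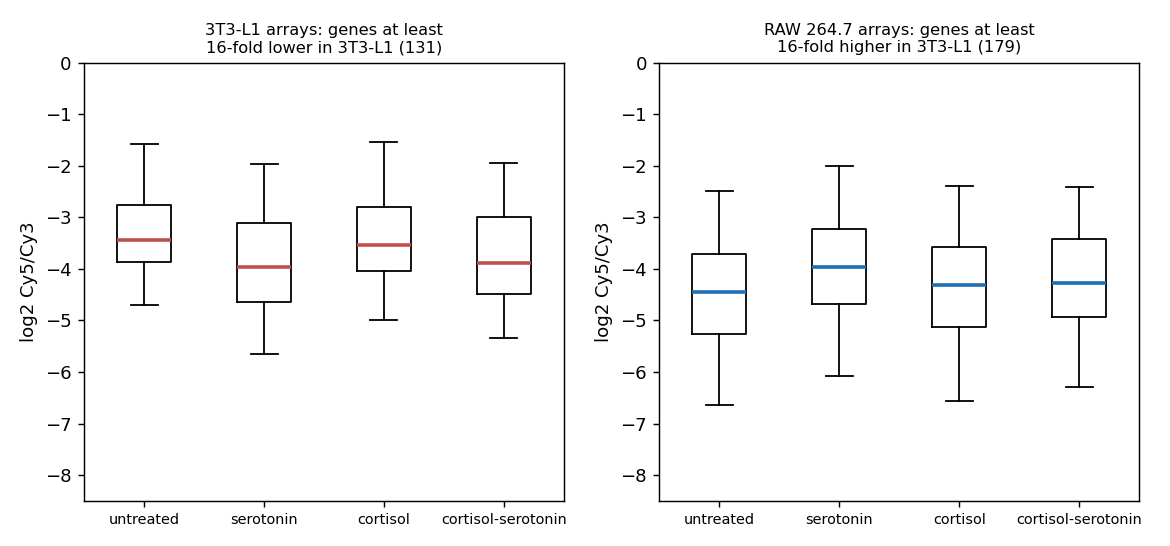
Log2 ratio to the reference by treatment for the 131 genes at least 16-fold lower in 3T3-L1 on the 3T3-L1 arrays (left) and for the 179 genes at least 16-fold higher on the RAW 264.7 arrays (right); boxes show quartiles, the coloured line the median, and whiskers the 5th and 95th percentiles over genes. The left medians are lowest on the serotonin array (-3.97) and the right medians highest on it (-3.96).

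The genes whose difference varied most over the 4 pairs were singled out by that range. F3, tissue factor, was higher by 4.23 ± 0.34 (adjusted p = 1.29e-06), with 1.59, 1.35, -0.66 and 1.06 in 3T3-L1 against -3.62, -3.33, -3.14 and -3.48 in macrophages; the array labelled cortisol was low. S100a8, a calcium-binding alarmin, was higher by 2.67 ± 0.37 (adjusted p = 7.22e-05), with 2.68, 3.00, 3.34 and 3.15 against -0.83, 1.72, -0.64 and 1.23, and the macrophage arrays labelled serotonin and cortisol-serotonin were the high pair. Rarres2, the adipokine chemerin, was higher by 5.70 ± 0.34 (adjusted p = 1.06e-07), with 2.48, 1.89, 2.55 and 2.05 against -4.11, -3.51, -4.08 and -2.12. None of the 3 had overlapping groups.

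Among the lower genes Hap1, huntingtin-associated protein, rested on 3 of the 4 pairs: it had -0.65, -0.71, -0.41 and -0.82 in 3T3-L1 against 2.01, -1.52, 1.80 and 1.78 in macrophages (-1.67 ± 0.47, adjusted p = 0.00818). Its macrophage array labelled serotonin lay below every 3T3-L1 array, so the groups overlapped; without the untreated pair its difference was -1.34 (adjusted p = 0.0716), without the cortisol pair -1.49 (adjusted p = 0.0536), and without the serotonin pair -2.50. Slco4a1, an organic anion transporter, was lower by -2.51 ± 0.32 (adjusted p = 4.07e-05), with -2.97, -0.56, -0.98 and -0.48 against 1.20, 1.29, 1.06 and 1.52. Cyb561 (-2.22) and Pigt (-1.73) were lower without overlap, and Csf3 (-1.002 ± 0.29, adjusted p = 0.00981) with overlap; Csf3 was not called without the untreated pair (-0.70, adjusted p = 0.0798), without the serotonin pair (-0.84), without the cortisol-serotonin pair (-0.999) or with no background correction (-0.96).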

How the data were processed

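RNA of 8 co-cultured samples was hybridised by the authors to dual-colour Agilent mouse arrays, with Cy5 for the sample and Cy3 for a common reference; no dye was swapped. The authors deposited scanner files made with Agilent Feature Extraction (10.5.1.1 per the file headers), whose intensity values are median spot and background signals per channel, and a table of log10 ratios, which matched the ratio column of the scanner files and served as an alternative. The other columns used from the deposited files were flags; Feature Extraction's own p-values were not used. The median spot signals stood in for mean signals.

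The median signals were background corrected (normexp, offset 50) and normalised within each array by loess with limma 3.58.1 in R 4.3.3, control spots at weight 0. Control and outlier-flagged spots were left out, spots of a probe were averaged, and probes flagged well above background in Cy5 and in Cy3 on each of the 8 arrays were averaged per gene. The offset makes folds of dim genes too small. RefSeq (GRCm38.p6) named 27508 of 39429 probes, giving 20886 genes; 11511 names were kept from the files. lmFit and eBayes were fitted with treatment and cell line as terms (3 residual degrees of freedom) and Benjamini-Hochberg adjustment over 10995 genes. Bounds used Cy5 levels after loess and Aquantile scaling. The fit was tested on simulated data. Precision is limited by the number of arrays.

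Arrays were paired by treatment as labelled. Deviations of same-treatment arrays from their line's mean correlated at -0.0075 (untreated), 0.0697 (serotonin), 0.0707 (cortisol) and -0.0683 (cortisol-serotonin), so arrays of a treatment did not deviate together.

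The genes named are the 8 markers, the 12 largest called differences and 12 largest bounds in each direction, the 5 widest ranges over pairs in each direction, and members of 29 lists (549 genes, 543 with a probe). Some genes that this rule names are not reported here. The members and lists were chosen with earlier results of these data known. Alternatives changed the normalisation, background correction, filter, choice of probe, pairing, threshold and source of values, and left out each array in turn.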

Additional observations from a re-analysis of the deposited data

Results flagged for a closer look

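In 12 of 302 groups of 4 arrays (151 named genes in each line), 1 array stood apart from the other 3 by more than Dixon's critical value; chance gives about 1 in 20 groups. On the 3T3-L1 arrays, Ccl7 was low on the untreated array (-0.99, next -0.20), as was Vwf (0.17, next 0.42), and Cnn2 was high on it (1.31, next 0.90). Il11 was high on the array labelled cortisol (2.96, next 1.55), as was Ptgs1 (0.76, next 0.42). On the macrophage arrays, the one labelled serotonin was high for Ccn1 (-3.06, next -4.20) and low for Hap1 (-1.52, next 1.78) and Trem2 (-0.21, next 0.26). The array labelled cortisol was high for Ebi3 (1.95, next 1.84) and low for Tlr13 (0.39, next 0.61), the untreated array was low for Irf5 (1.70, next 1.81), and the cortisol-serotonin array was low for Cd74 (0.91, next 1.43). All 12 genes were called in the fit over all arrays, and that 1 array turned the direction of the paired difference for Hap1 alone.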

How the results depend on the processing

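The slide coincides with the cell line, each line has 1 array per treatment, and a dim gene has only a compressed fold, so small differences are the least certain. Among the 1746 higher and 1743 lower genes, higher calls moved to 2684 of 31483 genes without a filter on dim probes and to 2797 of 14999 when a probe had to be above background in 1 line only, and calls without the fold threshold were 4180 higher and 3989 lower; the first 2 settings test more genes, and the last applies no 2-fold minimum. Genes above background only in 3T3-L1 with a bound of 2-fold moved to 709 from 471 when 3 of 4 arrays sufficed. With the floor at the 5th percentile there were 379 such genes in 3T3-L1 and 218 in macrophages. Of 47 named bounds, 13 then moved by more than the SD over the arrays of the bright line. With no background correction 28 of the 47 did. The share of calls that were higher was 50% in the fit reported, 39.3% with median centring (1415 higher and 2189 lower), 40.6% from Cy5 alone (1533 and 2244), 44.9% with Feature Extraction's processed signals (1861 and 2280) and 45% with the table of ratios (1862 and 2280). Median centring kept 3158 of the 3489 calls and Cy5 alone 2850, with the direction turned for 15 of the rest. Leaving out each array in turn gave 1706 to 1816 higher and 1726 to 1768 lower genes, 106 to 108 and 74 to 76 among the 258 listed genes tested (107 and 77), and 456 to 611 (471) and 262 to 296 (266) genes above background in 1 line only with a bound of 2-fold or more; leaving out either array of a pair gives the same fit. The fit without the replicate block gave 1746 and 1743, as did the fit with cortisol and serotonin exchanged in 3T3-L1. The design is balanced, so neither setting can change a difference between lines, and only the p-values could move. Equal counts here are thus no check of the differences or of the labels. Of 151 named genes tested, 136 kept their call and direction in all 18 settings. Those 18 are not independent checks. They include the 2 balanced settings above, both arrays of each pair, and 2 nearly equal sources of ratios. Col18a1, not called at -0.49, turned to 0.0875 from Cy5 alone, and Nr3c1, not called at -0.20, to 0.0841 with the brightest probe, and Lta4h, not called at 0.05, to -0.1604 with median centring, -0.01597 with processed signals and -0.01619 with the table of ratios; the cause was not tested. The 9 called genes that left the call somewhere were as follows: Gapdh, Igf2bp1, Rxra, Sdha and Traf6 came under 2-fold and Ccl3 lost its adjusted p, Fabp4 lost its call without the untreated pair and Csf3 in the settings given in the text, as did Hap1, which also reached an adjusted p of 0.056 with processed signals. Arhgdib passed 2-fold from Cy5 alone (-1.15), as did Tgfb1 and Ltc4s there and in the settings given in the text. Of the 143 called among them, the fold moved by over 1.5 times for 59 with processed signals or the table of ratios (all larger), 21 from Cy5 alone (15 smaller), 12 without the filter (all smaller: Tead1 to 6.4-fold, Fgfr1 to 32.0, Decr1 to 12.5, Gprc5b to 34.1, Hspg2 to 25.5, Itgam to 5.1, Col16a1 to 30.1, Ddr2 to 22.3, Cx3cr1 to 38.9, F3 to 8.4, Itgb3 to 6.5 and Vcan to 12.6), 11 when 1 line sufficed (all smaller), 5 with the brightest probe (2 smaller) and 1, Hap1, without the serotonin pair.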
